A study of Mus musculus with 18 samples.

Results

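Hox genes encode the homeodomain transcription factors that give each level of the body axis its identity, and 25 of them were followed here in dorsal spinal tissue of the mouse. They were chosen by name: every row of the 3 deposited tables that carried a single Hoxa, Hoxb, Hoxc or Hoxd gene name was taken, and where a name had several rows the row with the highest mean over the 6 groups was used. The 25 genes are 25 of the 34579 loci of each table and 25 of the 39 Hox genes of the mouse. The tissue was the dorsal part of spinal segments L3–5 of 3-month-old C57BL/6 mice (C57BL/6N in the study's methods). Mice had received an injection into the cord of a recombinant adeno-associated virus (rAAV) that carried LacZ (the control), wild-type histone deacetylase 4 (HDAC4 wt) or HDAC4 3SA, a mutant form that stays in the nucleus. Saline or Complete Freund's adjuvant (CFA), which causes lasting inflammation of the paw, was injected into the sole of a hindpaw 24 h before collection. The 6 groups of 3 mice, 18 mice in all, were therefore LacZ saline, LacZ CFA, HDAC4 wt saline, HDAC4 wt CFA, HDAC4 3SA saline and HDAC4 3SA CFA. All of them, the LacZ controls included, had been injected in the cord with a virus. The tissue was whole tissue and not sorted cells, so fewer cells of a type and less RNA per cell cannot be told apart.

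The Hox genes lie in 4 clusters, and the genes of a cluster are numbered from its 3′ to its 5′ end. In the embryo the order in the cluster is the order along the body: low numbers are used from the hindbrain downwards, middle numbers from the cervical and thoracic cord downwards, and high numbers only in the lumbar, sacral and tail regions. Genes with the same number in different clusters are paralogues. The middle numbers are still used at lumbar level, Hox10 and Hox11 genes mark the lumbar and upper sacral cord and the level of the hindlimb, and Hox12 and Hox13 genes mark the sacral cord and tail. Adult spinal neurons keep much of this pattern, so the ratio of Hox11 and Hox12 to the middle numbers varies with the segments that a piece of cord contains.

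Each table holds 1 FPKM value per group (fragments per kilobase of exon at a common sequencing depth, hence a level per length), estimated over the 3 mice together. The tables give no spread between mice, so no test of these values could be computed here. The authors' own test results for CFA against saline were not used, and the differences are given without a replicate check. Normalization was done separately for each of the 3 vectors, and levels of different vectors are set side by side only as a description. Markers of spinal tissue were present in 9 of 9 cases: Snap25, a synaptic protein of neurons, lay between 646 and 1227 FPKM in the 6 groups. Of 10 genes listed for brain territory only 3 had a row, and their summed level was 1.38 to 2.19 FPKM. Whether these 3 genes are limited to the brain was not tested.

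Of the 39 Hox genes, 25 had a row of their own, 4 (Hoxb9, Hoxd3, Hoxd4 and Hoxd10) stood only in rows that name several genes, and 10 (Hoxb1, Hoxa2, Hoxb5, Hoxa6, Hoxc8, Hoxc10, Hoxd12, Hoxa13, Hoxb13 and Hoxc13) were not analysed here. None of the 25 was at 0 in any group. A mean over the 6 groups of at least 0.5 FPKM was reached by 22, of at least 1 FPKM by 18 and of at least 10 FPKM by 9. The 3 below 0.5 FPKM were Hoxb2, Hoxa9 and Hoxd13. Hoxc12 and Hoxa10 passed this limit only through their levels in the LacZ groups, so counts over the 22 are a description. In what follows, 6 values in a sentence stand in the order LacZ saline, LacZ CFA, HDAC4 wt saline, HDAC4 wt CFA, HDAC4 3SA saline, HDAC4 3SA CFA.

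The genes with the lowest numbers were barely detected, apart from number 3. Hoxd1, which is also used by nociceptive sensory neurons, lay between 0.666 and 0.920 FPKM in all 6 groups, and Hoxb2, a hindbrain gene, between 0.179 and 0.404 FPKM. Hoxb3 was the exception, with 15.6, 18.5, 19.1, 15.5, 18.2 and 13.8 FPKM. Hoxa3, its paralogue in the Hoxa cluster, had 3.84, 3.64, 3.98, 3.58, 3.72 and 3.08 FPKM. Both are used from the hindbrain through the whole cord in the embryo, and the highest of the 6 values was 1.38 times the lowest for Hoxb3 and 1.29 times for Hoxa3.

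Middle numbers, 4 to 8, made up 80.8% to 86.2% of the summed FPKM of the 25 genes. This sum leaves out the rows that name several genes, such as that of Hoxb9 with 57.5 to 99.1 FPKM. With those rows counted, the share of the middle numbers would be lower. Hoxb8, at chr11:96281668-96285332 (GRCm38), was the most abundant member in every group, with 146, 155, 167, 130, 147 and 98.1 FPKM. This gene is used by dorsal spinal neurons from the cervical cord to the tail, and its loss in mice disturbs dorsal horn development and the response to heat. It alone gave between 34.3% and 43.1% of the summed level of the 25 genes in a group, and its lowest value was that of HDAC4 3SA CFA.

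Next in abundance were Hoxa7, Hoxc5 and Hoxd8. Hoxa7 had 32.6, 34.0, 34.3, 29.6, 30.8 and 25.2 FPKM. The row of Hoxc5 had 35.8, 33.5, 28.3, 24.9, 30.1 and 27.7 FPKM. Hoxd8 had 31.3, 28.4, 28.1, 27.3, 28.1 and 25.8 FPKM. The Hoxc5 value carries a doubt, since in the GENCODE M21 annotation a Hoxc5 transcript starts with an exon of Hoxc10 (166 shared bases at chr15:102967443-102967608), and reads of Hoxc10, a lumbar gene, could have been counted in it. Hoxa7 and Hoxd8 are trunk genes whose use extends into the caudal cord.

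The Hoxb genes of the middle numbers formed a series around 20 FPKM and below. Hoxb6 had 19.2, 20.9, 22.0, 17.1, 20.9 and 14.97 FPKM. Hoxb7 had 15.4, 16.7, 19.3, 15.3, 17.4 and 12.96 FPKM. Hoxb4 had 3.47, 3.65, 4.07, 3.37, 3.66 and 2.96 FPKM. In these 3 genes, as in Hoxb8, the highest value was that of HDAC4 wt saline and the lowest that of HDAC4 3SA CFA, and the ratio of highest to lowest was 1.38 to 1.49, against 1.70 for Hoxb8.

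Hoxa5, a cervical and upper thoracic gene required by the motor neurons of breathing, had 11.03, 11.2, 13.46, 10.5, 12.5 and 9.71 FPKM. Hoxc6, a gene of brachial motor neurons, had 5.49, 4.67, 6.54, 6.22, 6.54 and 5.64 FPKM. Hoxc4 had 5.65, 5.19, 5.93, 5.27, 6.04 and 4.59 FPKM. Its paralogue Hoxa4, like Hoxc4 a gene of the cervical cord and below, had 3.28, 3.73, 4.22, 3.66, 3.78 and 3.55 FPKM. For these 4 genes the highest of the 6 values was less than 1.5 times the lowest, and HDAC4 3SA CFA was lowest in Hoxa5 and Hoxc4, LacZ CFA in Hoxc6 and LacZ saline in Hoxa4.

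Hox9 genes lead thoracic identity, and Hoxc9 sets the boundary between limb-level and trunk motor columns. Hoxd9 had 14.7, 15.3, 12.7, 12.5, 13.2 and 11.8 FPKM, and was higher in both LacZ groups than in the other 4. Hoxc9 had 2.43, 2.51, 2.73, 2.47, 2.81 and 2.34 FPKM, the narrowest range among the 25, with a highest value 1.20 times the lowest. Hoxa9 stayed between 0.380 and 0.630 FPKM in its own row. Most reads of Hoxa9 and Hoxa10 may have been counted in another row: the one that names both genes held 42.4, 40.4, 40.0, 32.8, 39.5 and 32.5 FPKM. The single-name rows of Hoxa9 and Hoxa10 sit among identifiers of plus-strand genes while both genes lie on the minus strand. Such identifier blocks have the annotated strand for 3399 of 3484 genes on the 4 chromosomes (97.6%), and those 2 rows were the exceptions among the 25.

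Hoxb9, a Hox9 gene that was not among the 25, stood in a row shared with Gm53 that held 76.8, 76.8, 99.1, 76.6, 86.3 and 57.5 FPKM. Next to it in the cluster, Hoxb8 had the same group at each end of its range. Hoxd3 and Hoxd4 shared a row of 7.75, 7.25, 7.89, 6.34, 7.82 and 6.75 FPKM, whose highest value was that of HDAC4 wt saline and lowest that of HDAC4 wt CFA.

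Lumbar and sacral genes, numbers 10 to 13, included the 4 members with the highest ratio of highest to lowest group (Hoxc12, Hoxd13, Hoxc11 and Hoxd11), while Hoxb2 (2.26-fold, at under 0.5 FPKM) came before Hoxa10 (1.91-fold) and Hoxa11 (1.88-fold). Hoxa10, which helps set lumbar vertebral identity, had 0.649, 0.701, 0.527, 0.567, 0.459 and 0.367 FPKM in its own row. Hoxa11 (chr6:52242076-52250391), used at the level of the lower limb and in the limb itself, had 6.92, 5.78, 3.78, 3.67, 4.03 and 6.37 FPKM. It was high in both LacZ groups and in HDAC4 3SA CFA, and lower in both HDAC4 wt groups and in HDAC4 3SA saline. Hoxd11 (chr2:74679282-74695149), its paralogue with overlapping roles in limb and kidney, had 11.3, 10.7, 6.42, 3.67, 4.90 and 9.17 FPKM. Hoxc11 (chr15:102954220-102957786), a lumbosacral gene, had 5.83, 5.78, 1.57, 1.74, 2.94 and 5.12 FPKM. In all 3 Hox11 genes the same 3 groups gave the 3 highest values.

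Hoxc12 (chr15:102936782-102940930), a gene of the sacral and tail region, had 1.66, 2.03, 0.176, 0.0996, 0.595 and 0.632 FPKM. Here both LacZ groups were high, both HDAC4 3SA groups intermediate and both HDAC4 wt groups low, and the highest value was 20.4 times the lowest. Hoxd13, the last gene of its cluster and known for its part in digits and genitalia, had 0.301, 0.196, 0.0612, 0.0820, 0.0320 and 0.0969 FPKM, which is near the lower end of what the tables list. LacZ saline and LacZ CFA were again its highest values. Hoxd10, a gene of lumbar motor neurons, stood in a row with Hoxd11 and Gm28309 that held 42.4, 44.1, 22.0, 20.7, 27.1 and 32.2 FPKM. That row had a low value in the same 3 groups as Hoxd11, with HDAC4 3SA CFA between them and LacZ. Reads of Hoxd11 may be split between these rows, which lie at the same place, so the Hoxd11 values of its own row carry this doubt.

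**Figure D1:**
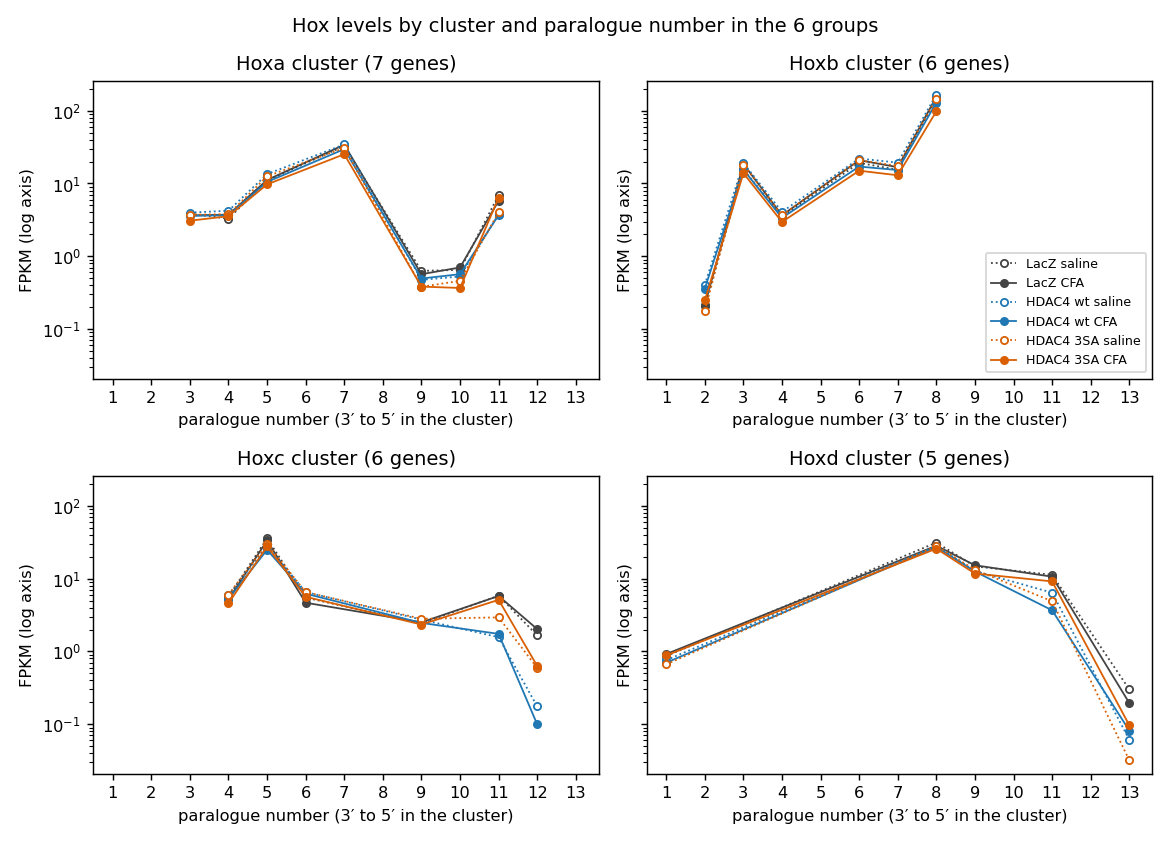
FPKM (log axis) of 24 of the Hox genes against their paralogue number, with a panel for each cluster and a line for each of the 6 groups (1 value per group of 3 mice). The lines run close together at most numbers and lie farthest apart at Hoxc11, Hoxd11, Hoxc12, which ranges from 0.0996 to 2.03 FPKM, and Hoxd13.

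Promoters of 4 members are printed as examples: Hoxa11 and Hoxd11 from the Hox11 group, Hoxd13 from the end of a cluster, and Hoxb8 as the most abundant member. No promoter sequence was at hand for Hoxc11 and Hoxc12. Each is the 250 bases before the annotated start, from RefSeq on GRCm38.p6, at chr6:52245811-52246060 on the minus strand for Hoxa11, and on the plus strand at chr2:74679308-74679557 for Hoxd11, chr2:74667975-74668224 for Hoxd13 and chr11:96281655-96281904 for Hoxb8. Capitals mark the letters TTTAT (the core bound by the caudal-type CDX factors), TGATTNAT (a PBX and HOX pair), CCAAT or TATAAA, read on either strand. TTTAT and TATAAA can overlap, as they do in Hoxd13 and Hoxb8.
Hoxa11: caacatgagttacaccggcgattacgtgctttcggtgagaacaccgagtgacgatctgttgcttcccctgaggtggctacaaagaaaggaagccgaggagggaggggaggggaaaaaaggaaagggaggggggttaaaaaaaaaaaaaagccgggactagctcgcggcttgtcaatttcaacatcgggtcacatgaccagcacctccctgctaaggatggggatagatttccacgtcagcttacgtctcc
Hoxd11: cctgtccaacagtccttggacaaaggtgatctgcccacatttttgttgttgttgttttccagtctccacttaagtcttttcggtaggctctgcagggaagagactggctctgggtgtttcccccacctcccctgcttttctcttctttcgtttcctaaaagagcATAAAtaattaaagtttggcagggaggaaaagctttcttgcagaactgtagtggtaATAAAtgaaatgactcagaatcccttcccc
Hoxd13: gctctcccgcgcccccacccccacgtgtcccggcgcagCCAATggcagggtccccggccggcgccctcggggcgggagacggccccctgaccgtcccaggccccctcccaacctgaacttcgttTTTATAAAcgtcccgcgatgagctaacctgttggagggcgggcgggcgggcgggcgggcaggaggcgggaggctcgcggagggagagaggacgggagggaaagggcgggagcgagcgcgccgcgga
Hoxb8: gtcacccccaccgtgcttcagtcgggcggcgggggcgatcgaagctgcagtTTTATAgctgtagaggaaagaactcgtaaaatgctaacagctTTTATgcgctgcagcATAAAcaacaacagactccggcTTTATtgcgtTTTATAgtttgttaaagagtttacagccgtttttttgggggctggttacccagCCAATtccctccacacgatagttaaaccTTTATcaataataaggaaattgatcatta
The window of Hoxb8 held 6 matches of TTTAT, that of Hoxd11 2, that of Hoxd13 2 and that of Hoxa11 0. Among 32851 promoters of the same length, 37.3% held TTTAT, 2.82% TGATTNAT, 33.8% CCAAT and 12.4% TATAAA. RefSeq windows were found for 22 Hox genes, 14 of them among the 25, in 24 windows. Of these windows 37.5% held TTTAT, 8.33% TGATTNAT, 58.3% CCAAT and 16.7% TATAAA. The Hox windows had a median of 12.5 CpG and 58.6% G and C, against 6 CpG and 52.4% over all. A match is a string of letters, and says nothing of binding.

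The comparison of vectors addressed whether the groups differ in segment identity genes without CFA. A log2 ratio beyond 0.5, with 0.1 FPKM added to each value, was used to count members. In HDAC4 wt against LacZ, saline, 4 of the 22 members were beyond it, all lower, against 29.4% of the 21830 loci that passed the same limit. These 4 were Hoxa11 (log2 ratio -0.85), Hoxc11 (-1.83), Hoxd11 (-0.81) and Hoxc12 (-2.68). In HDAC4 3SA against LacZ, saline, the same 4 names were beyond it, again all lower, against 25.7% of loci. Their log2 ratios were -0.77 for Hoxa11, -0.97 for Hoxc11, -1.19 for Hoxd11 and -1.34 for Hoxc12. Both comparisons use the same LacZ saline value, so that they are not independent. The share of members beyond the limit, 18.2%, was below that of all loci in each. By place in the cluster, all 5 members numbered 11 to 13 were lower than in LacZ, while 14 of the 20 members numbered 1 to 10 were higher in HDAC4 wt and 11 of 20 in HDAC4 3SA. The median log2 ratio was -1.31 for the 5 and 0.15 for the 20 in HDAC4 wt, and -1.19 and 0.04 in HDAC4 3SA, against 0.04 over all loci in both. This grouping of numbers was made after the values had been seen.

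The vectors were also set side by side after CFA. In HDAC4 wt against LacZ, CFA, 4 members were beyond the limit, all lower, against 24.3% of loci: Hoxa11 (-0.64), Hoxc11 (-1.67), Hoxd11 (-1.51) and Hoxc12 (-3.41). In HDAC4 3SA against LacZ, CFA, 3 were beyond it, all lower, against 31.3% of loci: Hoxb8 (-0.66), Hoxa10 (-0.78) and Hoxc12 (-1.54). This last count depends on the processing: it was 6 with groups centred on the median of loci above 5 FPKM, and 1 among members that averaged 1 FPKM or more. Hoxa10 is given here from its own row, at under 1 FPKM. The more abundant row that names Hoxa9 and Hoxa10 had a log2 ratio of -0.32, within the limit. The log2 ratios of the Hox11 genes in this comparison were 0.14 for Hoxa11, -0.17 for Hoxc11 and -0.21 for Hoxd11. Both comparisons share the LacZ CFA group. The summed level of the 25 genes was 384 FPKM in LacZ CFA, 319 FPKM in HDAC4 wt CFA and 286 FPKM in HDAC4 3SA CFA, against 374, 386 and 360 FPKM after saline. Centring each group on the median of loci above 5 FPKM moved ratios between vectors by up to 0.10 on the log2 scale and those within a vector by up to 0.04.

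Over all 6 groups, 3 of the 22 members differed more than 2-fold between their highest and lowest value (Hoxc11, 3.72-fold; Hoxd11, 3.07-fold; Hoxc12, 20.4-fold, the fold computed without an added constant), against 24.2% of loci. The median fold of highest over lowest was 1.38 for the 20 members numbered 1 to 10 and 3.72 for the 5 numbered 11 to 13.

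**Figure D2:**
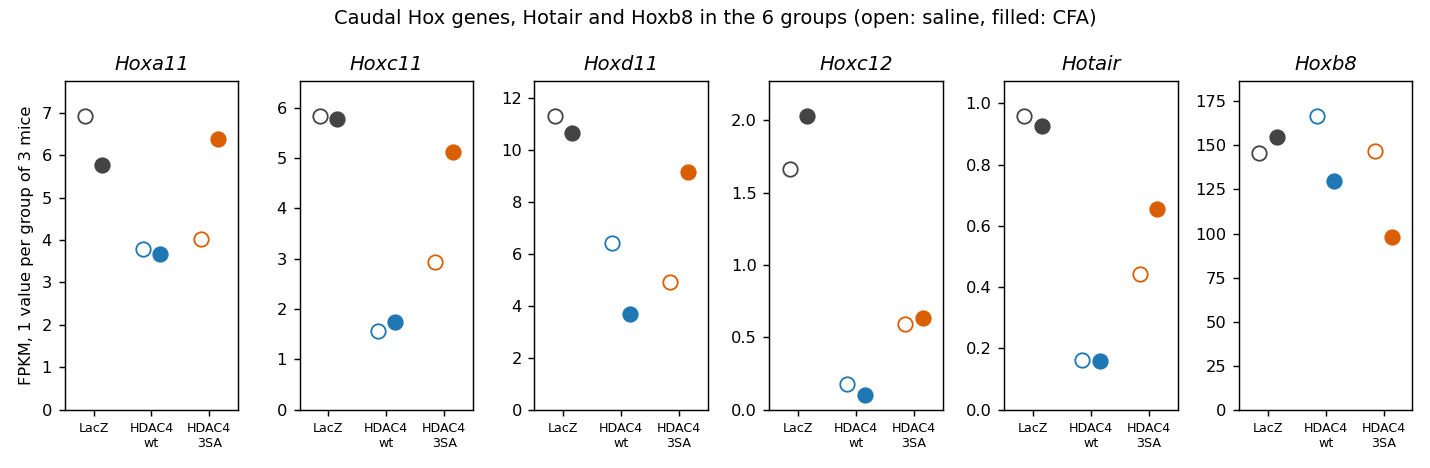
FPKM of the 3 Hox11 genes, Hoxc12, the non-coding RNA Hotair and Hoxb8 by vector, with each axis starting at 0; open points are saline and filled points CFA, 1 value per group of 3 mice. The Hox11 genes are low in both HDAC4 wt groups and in HDAC4 3SA saline and high in the other groups, while Hoxb8 is lowest in HDAC4 3SA CFA at 98.1 FPKM.

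CFA against saline was the comparison that the study made within each vector. In LacZ mice, 0 of the 22 members were beyond a log2 ratio of 0.5, against 10.4% of loci, and their log2 ratios lay between -0.26 (Hoxa11) and 0.27 (Hoxc12). In HDAC4 wt mice, 1 was beyond it, Hoxd11 (-0.79, from 6.42 to 3.67 FPKM), against 17.3% of loci. In HDAC4 3SA mice, 4 were beyond it (18.2%), near the 16.5% of loci. The 3 Hox11 genes were higher after CFA, with log2 ratios of 0.65 for Hoxa11, 0.78 for Hoxc11 and 0.89 for Hoxd11, which are 1.58, 1.74 and 1.87 times the saline value. In the more abundant row that names Hoxd10 and Hoxd11 together, the log2 ratio was 0.25 in HDAC4 3SA and -0.09 in HDAC4 wt, both within the limit. Hoxb8 was lower (-0.58, 0.668 times the saline value).

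Most numbers below 11 stood on the other side from the Hox11 genes in HDAC4 3SA. In HDAC4 3SA mice, 17 of the 20 members numbered 1 to 10 were lower after CFA and 3 were higher (Hoxd1, Hoxb2 and, by a log2 ratio of 0.01, Hoxa9), with a median log2 ratio of -0.26. In HDAC4 wt mice, 18 of the 20 were lower, with a median of -0.16, and 2 of the 3 Hox11 genes were lower too. In LacZ mice 13 of the 20 were higher, with a median of 0.05. The medians over all loci were 0.00, 0.01 and 0.01 in LacZ, HDAC4 wt and HDAC4 3SA. Most of these differences are under a log2 ratio of 0.5, and whether they exceed the variation between mice was not tested.

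The Hoxb genes mostly stood on the same side within a vector. After CFA all 6 were higher in LacZ (log2 ratios of 0.03 to 0.25) and all 6 were lower in HDAC4 wt (-0.36 to -0.14). In HDAC4 3SA 5 of 6 were lower (-0.58 to -0.30) and Hoxb2, at under 0.5 FPKM, was higher. Their summed level was 199 and 215 FPKM in LacZ saline and CFA, 231 and 181 FPKM in HDAC4 wt, and 207 and 143 FPKM in HDAC4 3SA. Hoxb8 makes up most of these sums. Without it the direction in the 4 other Hoxb genes above 0.5 FPKM was the same, as each was higher in LacZ and lower in HDAC4 wt and HDAC4 3SA.

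**Figure D3:**
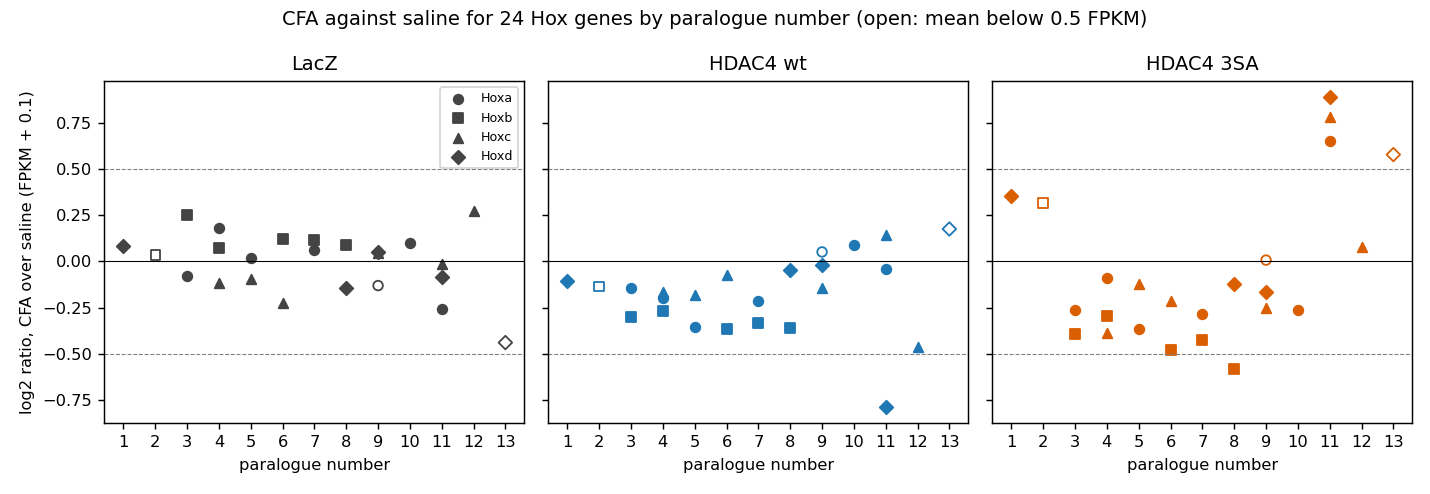
Log2 ratio of CFA over saline (0.1 FPKM added) for 24 of the Hox genes against their paralogue number, with a panel per vector and a symbol per cluster; open symbols have a mean below 0.5 FPKM and dashed lines mark 0.5 in either direction. In HDAC4 3SA the 3 genes of number 11 lie above the upper line, at 0.65 to 0.89, and most lower numbers lie below 0.

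Ratios of Hox genes within a group do not depend on how a table was scaled. Hox10 and Hox11 members gave 6.60%, 5.97%, 3.18%, 3.03%, 3.43% and 7.35% of the summed Hox FPKM. Both LacZ groups and HDAC4 3SA CFA were thus near 6% to 7%, and the other 3 groups near 3%. With the rows that name several genes added, split in equal parts between the Hox genes named, the shares were 16.2%, 15.8%, 9.78%, 10.3%, 11.4% and 16.7%, so that their size rests on which rows are counted while the same 3 groups stayed highest. On the log2 scale, the ratio of the summed Hox10 and Hox11 level to the summed Hox8 and Hox9 level was -2.98, -3.14, -4.10, -4.16, -3.96 and -2.72. The mean paralogue number, with each gene weighted by its FPKM, was 7.21, 7.19, 7.05, 7.03, 7.03 and 7.12. This last measure ranged over 0.18 only, because the abundant middle numbers dominate it.

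Inside single clusters the same 3 groups gave the 3 highest ratios, although the order within the high and the low groups varied. In the Hoxc cluster, the level of Hoxc11 was 2.40 and 2.30 times that of Hoxc9 in LacZ saline and CFA, 0.574 and 0.707 times in HDAC4 wt, and 1.05 and 2.18 times in HDAC4 3SA. In the Hoxd cluster, Hoxd11 was 0.766 and 0.697 times Hoxd9 in LacZ, 0.504 and 0.293 times in HDAC4 wt, and 0.370 and 0.779 times in HDAC4 3SA. In the Hoxa cluster, Hoxa11 was 0.212 and 0.170 times Hoxa7 in LacZ, 0.110 and 0.124 times in HDAC4 wt, and 0.131 and 0.253 times in HDAC4 3SA. In each cluster the lowest LacZ ratio was above the highest of HDAC4 wt, and HDAC4 3SA was nearer to HDAC4 wt after saline and nearer to LacZ after CFA. The row that holds Hoxd10 gave 2.88 and 2.88 times Hoxd9 in LacZ, 1.73 and 1.65 times in HDAC4 wt, and 2.05 and 2.74 times in HDAC4 3SA. Hoxc12 did not follow in HDAC4 3SA, where it was 0.203 times Hoxc11 after saline and 0.124 times after CFA, against 0.285 and 0.351 times in LacZ. The level at which each piece of cord was taken is not known from the labels beyond L3–5, and its part in these differences was not tested. With 1 value per group, the group and the level of dissection cannot be told apart.

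Markers of other cells that dissection could bring in also differed between groups. The summed FPKM of 8 motor neuron genes, which belong to the ventral horn, was 58.4, 75.0, 25.9, 60.0, 42.0 and 99.5, and 8 of 8 were higher after CFA in each vector, with median log2 ratios of 0.36, 1.10 and 1.21. Chat, the enzyme that makes acetylcholine, had 4.57, 5.97, 2.25, 5.09, 4.45 and 11.1 FPKM. The motor neuron sum was thus highest in HDAC4 3SA CFA, where the Hox11 genes were 1.58 to 1.87 times their saline value. It was also higher after CFA than after saline in HDAC4 wt (60.0 against 25.9 FPKM), where the Hox11 genes did not move together: Hoxa11 was 0.971 times, Hoxc11 1.11 times and Hoxd11 0.573 times its saline value. The summed FPKM of the 11 of 12 dorsal horn neuron genes with a row was 131, 159, 163, 132, 141 and 113. Their median log2 ratio of CFA to saline was 0.15 in LacZ (10 of 11 higher), -0.31 in HDAC4 wt (1 of 11 higher) and -0.41 in HDAC4 3SA (1 of 11 higher), the same sign as that of the Hoxb genes in each vector. The part of motor neuron or dorsal horn content in the Hox values was not tested.

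**Figure D4:**
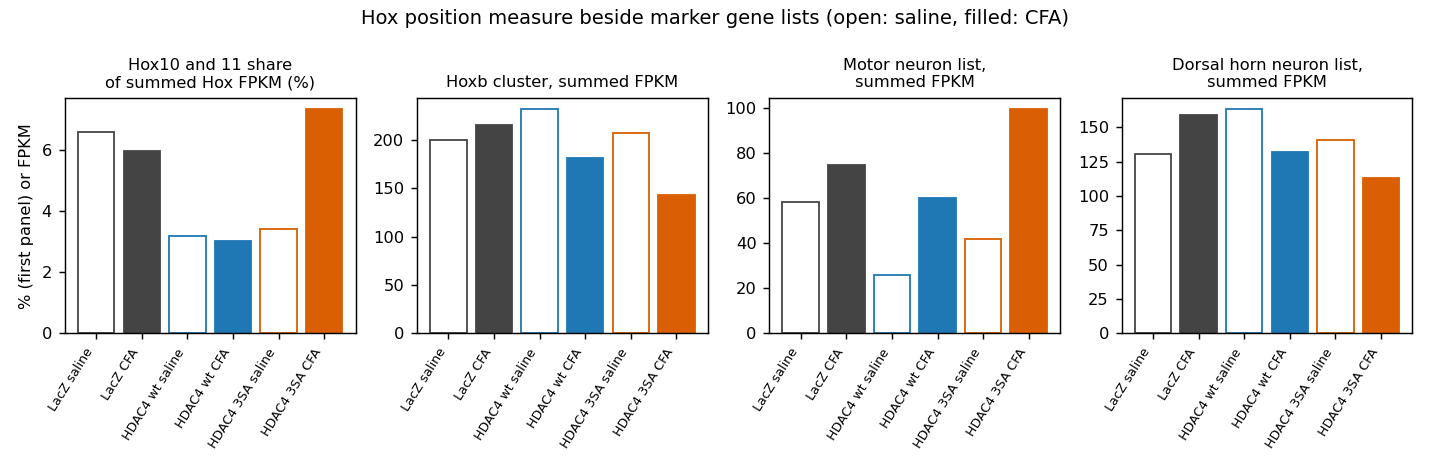
Share of the summed Hox FPKM given by Hox10 and Hox11 members (%), summed FPKM of the 6 Hoxb members, and summed FPKM of the motor neuron and dorsal horn neuron lists in the 6 groups; open bars are saline, filled bars CFA, and all axes start at 0. The Hox10 and Hox11 share is 3.03% to 3.43% in 3 groups and 5.97% to 7.35% in the other 3, while the motor neuron sum is higher after CFA in every vector.

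Other tissues gave further differences that did not share the order of the Hox11 genes. The summed level of 7 of 8 leptomeningeal fibroblast genes was 374, 679, 544, 702, 483 and 553 FPKM. That of 6 of 7 skeletal muscle genes was 17.6, 36.2, 6.62, 2.25, 55.3 and 46.5 FPKM. The muscle sum was lowest in HDAC4 wt CFA and highest in HDAC4 3SA saline. Of 8 dorsal root ganglion genes 3 had a row, with sums of 1.47 to 10.5 FPKM that were mostly Avil, and Trpv1 was listed at 0 in HDAC4 3SA saline. P2rx3, an ion channel of nociceptors, had 0.453 to 0.598 FPKM. Ganglia also carry Hox genes. Neuronal and astrocyte genes differed between vectors: Snap25 had 1227, 1135, 795, 719, 861 and 646 FPKM, and Gfap, an astrocyte filament gene, had 389, 415, 807, 1025, 805 and 1094 FPKM. Snap25 was highest in both LacZ groups, which were also high for the Hox11 genes. It was lowest in HDAC4 3SA CFA, also a high group for the Hox11 genes. The part of neuron or astrocyte content in the Hox values was not tested.

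Non-coding RNAs of the clusters were read from a list of 19, of which 9 had a row. Hotair, transcribed between Hoxc11 and Hoxc12, had 0.958, 0.926, 0.163, 0.160, 0.442 and 0.656 FPKM. Hoxa11os, the antisense RNA of Hoxa11, had 2.99, 2.84, 1.66, 1.61, 1.76 and 3.04 FPKM. Both stood in the same 3 high and 3 low groups as the Hox11 genes next to them; overlapping and antisense transcripts can share reads where strand is not used in counting. The study's methods describe libraries that keep the strand, and whether it was used in counting is not given in the sources used here. Hotairm1, the most abundant of the list, lies at the other end of the Hoxa cluster and had 8.05 to 8.96 FPKM. Hoxaas3, from the middle of the Hoxa cluster, had 3.14, 2.65, 1.51, 1.69, 1.77 and 1.73 FPKM, and was thus higher in LacZ but not in HDAC4 3SA CFA. Hoxb5os had 2.05, 1.65, 3.43, 1.92, 2.77 and 3.07 FPKM. In CFA against saline, 0 of the 8 above 0.5 FPKM were beyond a log2 ratio of 0.5 in LacZ (10.4% of loci), 1 in HDAC4 wt (Hoxb5os, lower, 17.3% of loci) and 1 in HDAC4 3SA (Hoxa11os, higher, 16.5% of loci).

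Genes beside the clusters were read from a list of 13, of which 10 were compared. Evx2, which lies next to Hoxd13 and encodes a homeodomain protein of spinal interneurons, had 0.666, 0.251, 0.0582, 0.0956, 0.211 and 0.163 FPKM, with both LacZ groups highest as in Hoxd13. Evx1, at the same end of the Hoxa cluster, had 0.102 to 0.252 FPKM. The most abundant neighbour, Hibadh, an enzyme of valine breakdown with no role in patterning, had 40.6 to 43.7 FPKM. Of the 8 neighbours above 0.5 FPKM, 0 were beyond a log2 ratio of 0.5 between CFA and saline in any vector, against the same shares of loci.

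Hox proteins bind DNA with PBX and MEIS partners, and all 9 genes of that list had a row. Pbx3, the most abundant, had 43.7, 60.8, 22.7, 40.6, 25.9 and 23.2 FPKM, and its log2 ratio of CFA to saline was 0.84 in HDAC4 wt. Pbx2 had 7.76, 2.45, 4.36, 12.0, 1.59 and 12.0 FPKM, which is beyond the limit after CFA in all 3 vectors, lower in LacZ (-1.62) and higher in HDAC4 wt (1.44) and HDAC4 3SA (2.83). The other 7 were within it in every vector, Meis1 with 4.77 to 5.96 FPKM among them. Neither Pbx2 nor Pbx3 had its high and low groups where the Hox11 genes had theirs.

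Upstream of the caudal Hox genes in the embryo act Gdf11, a growth factor that brings on the lumbar and sacral genes, the CDX factors and retinoic acid receptors, and 5 of the 8 genes on that list had a row. Gdf11 had 19.9, 13.7, 8.91, 16.1, 11.4 and 14.1 FPKM, with log2 ratios of CFA to saline of -0.53 in LacZ and 0.85 in HDAC4 wt. The retinoic acid receptor genes Rara, Rarb and Rarg had 3.00 to 6.29 FPKM and were within the limit in all vectors. Polycomb and trithorax proteins keep Hox genes off or on in adult cells. All 18 genes of that list had a row, 0 of 18 were beyond the limit between CFA and saline in any vector (against 10.4%, 17.3% and 16.5% of loci in LacZ, HDAC4 wt and HDAC4 3SA), and their median log2 ratios were 0.00, -0.08 and -0.04. Against LacZ after saline, 17 of 18 were higher in HDAC4 wt and 15 of 18 in HDAC4 3SA. Beyond the limit was 1 gene in each, higher, against 29.4% and 25.7% of loci. After CFA, 12 and 11 of 18 were higher than in LacZ, with 2 beyond the limit in each, against 24.3% and 31.3% of loci. Cbx7, the most abundant, had 30.4 to 36.3 FPKM.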

How the data were processed

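RNA sequencing of dorsal spinal tissue was read from 3 gene tables, 1 per vector, each with a saline and a CFA group of 3 mice. According to the submitters' processing notes, reads were mapped with TopHat and Bowtie to GRCm38 (mm10) and analysed with Cufflinks and Cuffdiff. The FPKM values that the authors deposited count fragments per kilobase of exon at a common sequencing depth, as 1 pooled estimate per group. Depth per library and values per mouse are not part of these tables, so the precision of a value is unknown, no SD or interval is given, and a level at or near 0 says nothing of absence. The authors' own comparison columns in the deposited tables (log2 fold changes, a test statistic or score, p-values and q-values) were not used.

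The 25 members were the rows with a single Hox name, and the row with the highest mean was kept per name. Of 34579 loci, 386 with places that do not overlap between tables were left out. Log2 ratios were computed with 0.1 FPKM added, for loci with a mean of at least 0.5 FPKM (21830 loci), and counted beyond 0.5 in either direction; a fold between groups was computed without an added constant. The rule for named genes gave all values for members that averaged 1 FPKM or more, for numbers 10 to 13 and for members beyond the limit, and, from 18 gene lists with 175 names, the most abundant gene and genes beyond the limit between CFA and saline. Genes named beside these to describe a tissue (Snap25, Gfap, Chat, Trpv1, P2rx3), an upstream list (Rara, Rarb, Rarg) or an end of a cluster (Evx1, Evx2, Hotair, Hoxaas3) were chosen after their values were seen. A few named genes are not reported here, in text or plots, but count in totals. Members and lists were chosen with earlier results of these data known. Coordinates are those of the tables, promoters are from RefSeq, and gene strands and exons from GENCODE M21. Computation used Python 3.11.15, pandas 2.3.3 and numpy 2.4.6, was tested on simulated data, and was repeated with other added values, limits, scalings and rows.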

Additional observations from a re-analysis of the deposited data

Results flagged for a closer look

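The row named for Hoxd11 alone stood on opposite sides with CFA in the 2 HDAC4 vectors. Its log2 ratio of CFA to saline was 0.89 in HDAC4 3SA (4.90 to 9.17 FPKM) and -0.79 in HDAC4 wt (6.42 to 3.67 FPKM), a difference of 1.68. With 1 pooled value per group this difference was not tested. A more abundant row at the same place that names Hoxd10, Hoxd11 and Gm28309 had log2 ratios of 0.25 in HDAC4 3SA and -0.09 in HDAC4 wt.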

How the results depend on the processing

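No paired analysis was possible because the tables give 1 pooled value per group and their columns carry no replicate numbers; for the same reason no mouse could be left out in turn. Of 81 recomputed counts and ranges, 63 stayed within 1.5 times the value given. Of 108 recomputed values of single groups, 48 stayed within 1 SD over the 6 groups and 60 did not. The range over groups of the mean paralogue number went from 0.18 to 0.36 with log2(FPKM + 1) as weight and to 0.38 without Hoxb8. That of the Hox10 and Hox11 share went from 4.32 to 6.96 percentage points with the rows naming several genes. That of the log2 ratio of Hox10 and Hox11 to Hox8 and Hox9 went from 1.44 to 0.57 with the log2 weight, which made LacZ saline the highest group in place of HDAC4 3SA CFA. Members beyond the limit in HDAC4 wt, CFA against saline, went from 1 to 2 with 0 FPKM added or with centring, and to 0 at a log2 ratio beyond 1. In HDAC4 3SA, CFA against saline, they went from 4 to 0 beyond 1. For HDAC4 wt and HDAC4 3SA against LacZ, saline, they went from 4 to 2 beyond 1, and to 2 at a mean from 5 FPKM upwards. In HDAC4 wt against LacZ, CFA, they went from 4 to 2 at that mean. In HDAC4 3SA against LacZ, CFA, they went from 3 to 1 at a mean from 1 or from 5 FPKM upwards or beyond 1, and to 6 with centring. Members over 2-fold between groups went from 3 to 1 at a mean from 5 FPKM upwards. Higher means leave fewer members tested; the other causes were not tested. The 5 FPKM limit, the rows naming several genes and leaving out Hoxc5 were chosen after seeing the data. Precision is limited by the lack of values per mouse, and values below 1 FPKM should be read with care.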

Other observations

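The lists for neighbouring tissues held further genes with a log2 ratio of CFA to saline beyond 0.5. Over all loci the share beyond it was 10.4% with LacZ, 17.3% with HDAC4 wt and 16.5% with HDAC4 3SA. Of 8 motor neuron genes, 1 was beyond it in LacZ mice (Mnx1, 0.74), 7 with HDAC4 wt and 8 with HDAC4 3SA, all higher, and whether the vectors differ was not tested. Prph, the filament gene that was the most abundant of them, had log2 ratios of 0.34, 1.30 and 1.47 with LacZ, HDAC4 wt and HDAC4 3SA. Slc18a3 (0.41, 1.34 and 1.25) and Chodl (0.35, 1.09 and 0.85) stood on the same side. Of the dorsal horn neuron genes, Grp was beyond it in LacZ (0.53), and Lmx1b (-0.59), Nmu (-0.71) and Tlx3 (-0.52) in HDAC4 3SA. Tac2, the most abundant of them, ran from 59.1 to 89.5 FPKM.

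The peripheral myelin genes Prx and Drp2 were beyond 0.5 in LacZ (0.72 and 0.63), while Prx and Ncmap were beyond -0.5 in HDAC4 3SA (-0.75 and -0.90). In the meninges list Ptgds had log2 ratios of 1.04 in LacZ and 0.51 in HDAC4 wt, Col1a1 had 0.62, 0.40 and 0.27, and Lum had 0.55, 0.23 and 0.12, with LacZ, HDAC4 wt and HDAC4 3SA. In the skeletal muscle list 5 of 5 genes above 0.5 FPKM were beyond -0.5 after CFA in HDAC4 wt (17.3% of loci beyond the limit in either direction), Ckm at -2.96 and Tnnt3 at -2.19, and 4 of 5 were beyond 0.5 in LacZ (10.4% of loci), Myh4 at 1.56. Avil, of the ganglion list, had a log2 ratio of 1.62 in HDAC4 wt. These differences have no replicate check.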
